A study of Mus musculus with 19 samples.

Results

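The miR-29 family was followed in 3 tissues of 2 inbred mouse strains that differ in voluntary wheel running. Its members were taken by name, as every mature miRNA on the array whose name carries the stem miR-29a, miR-29b or miR-29c, with any locus number and arm. This gave 7 of the 1136 miRNAs on the array: mmu-miR-29a-3p, mmu-miR-29b-3p, mmu-miR-29c-3p, mmu-miR-29a-5p, mmu-miR-29b-1-5p, mmu-miR-29b-2-5p and mmu-miR-29c-5p, written below without the species prefix. High-active mice were C57L/J and low-active mice were C3H/HeJ. All were males of 9 weeks that had been housed alone for a week with a running wheel that was locked, and none was treated. RNA came from whole pieces of the nucleus accumbens, a ventral striatal region of the reward circuit, from the soleus, a slow hindlimb muscle, and from the extensor digitorum longus (EDL), a fast one. Each of the 19 single-colour Agilent arrays held the RNA of 1 tissue of 1 mouse. The nucleus accumbens was measured in 4 high-active and 3 low-active mice, the soleus in 4 high-active and 2 low-active mice, and the EDL in 2 high-active and 4 low-active mice, with 8 mice in all. Strain and running class were the same split, so the comparison is of 2 strains. The array titles give each array of a group its own animal number, whereas the series text states that biological replicates were not used, so the p-values measure the spread between these arrays.

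A mature miRNA guides an Argonaute protein to messenger RNAs that pair with its seed, the short stretch at bases 2 to 8. Each hairpin precursor yields a 5p and a 3p arm, of which one is usually kept and the other mostly degraded. The miR-29 family is best known for repressing extracellular matrix genes, among them collagens, elastin and fibrillin, in fibroblasts and muscle. It has also been described as promoting myoblast differentiation and as rising in neurons and glia while the mouse brain matures.

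The sequences are shown because the 3p arms share their seed while the 5p arms do not, and because the 3p arms differ by few bases. All 7 members were matched by name to RefSeq (GRCm38.p6). They are printed 5′ to 3′ with the seed in capitals.
miR-29a-3p: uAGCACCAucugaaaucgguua
miR-29b-3p: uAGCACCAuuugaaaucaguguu
miR-29c-3p: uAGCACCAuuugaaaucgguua
miR-29a-5p: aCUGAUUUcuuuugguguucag
miR-29b-1-5p: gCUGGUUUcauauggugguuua
miR-29b-2-5p: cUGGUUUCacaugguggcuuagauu
miR-29c-5p: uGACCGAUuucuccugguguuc

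All 3p arms carry the seed AGCACCA, which was found in none of the other mature mouse miRNAs among the 1679 names in that table. Counting from the 5′ end, miR-29a-3p and miR-29c-3p differ at 1 of 22 bases (C10U). Over the same 22 bases miR-29b-3p differs from miR-29c-3p at 3 (G18A, U21G and A22U), and it ends 1 base later. How far the probes separate arms this alike was not tested. The 5p arms share no seed with each other.

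The hairpins lie in 2 clusters. Mir29a (chr6:31062660-31062747) and Mir29b-1 (chr6:31063023-31063093) are on the minus strand of chromosome 6 with 275 bases between them, and no other annotated gene spans them. Mir29b-2 (chr1:195037040-195037120) and Mir29c (chr1:195037547-195037634) are on the plus strand of chromosome 1 with 426 bases between them, inside the span of the long non-coding RNA gene A330023F24Rik (chr1:195017399-195037908). Mature miR-29b-3p is identical from both clusters, so its signal cannot be assigned to either, while the 2 miR-29b 5p arms are specific to their own.

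Levels are given as log2 of the spot signal after all 19 arrays had been scaled to a common 75th percentile, with values below 21.2 intensity units set to that floor (4.41 on the log2 scale). They are comparable between samples for 1 member and not between members, whose probes differ. Arrays differed in brightness, with scale factors of 0.482 to 1.62, and from 237 to 388 miRNAs were above background. The dimmest was the EDL array of low-active mouse 195. No spot was saturated. The tissue labels were checked on the summed signal of marker miRNAs. The 5 brain miRNAs summed to a log2 of 16.2 to 16.8 in the nucleus accumbens and to 9.85 to 11.4 in the muscles, and the 4 skeletal muscle miRNAs to 8.60 to 11.0 in the nucleus accumbens and 18.7 to 19.6 in the muscles. The highest muscle sum in the nucleus accumbens was that of low-active mouse 197. The 4 vascular miRNAs summed to 11.6 to 12.1 in the nucleus accumbens and 12.95 to 13.9 in the muscles, and the 4 leukocyte miRNAs to 9.76 to 10.2 in the nucleus accumbens and 10.2 to 10.9 in the muscles. The 5 epithelial miRNAs reached 6.73 to 14.3 in the nucleus accumbens and were above background on no muscle array. The part of these other cells in the miR-29 differences was not tested. miR-206-3p, a miRNA of slow muscle, was 9.86-fold higher in the soleus than in the EDL (adjusted p = 1.50e-06, limma). Fewer cells of a type and less RNA per cell cannot be told apart in such tissue RNA.

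The members miR-29a-3p, miR-29b-3p, miR-29c-3p and miR-29c-5p were above background on all 19 arrays. miR-29b-1-5p was above background on 18 arrays, all but the EDL of low-active mouse 195. miR-29a-5p was above background on all 7 arrays of the nucleus accumbens, on 4 of 6 of the soleus and on 2 of 6 of the EDL. miR-29b-2-5p was above background only in the nucleus accumbens of high-active mouse 223, and it lay at the floor on every array, so it entered no test and has no fold change. The other 6 members were tested in every comparison.

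**Figure D1:**
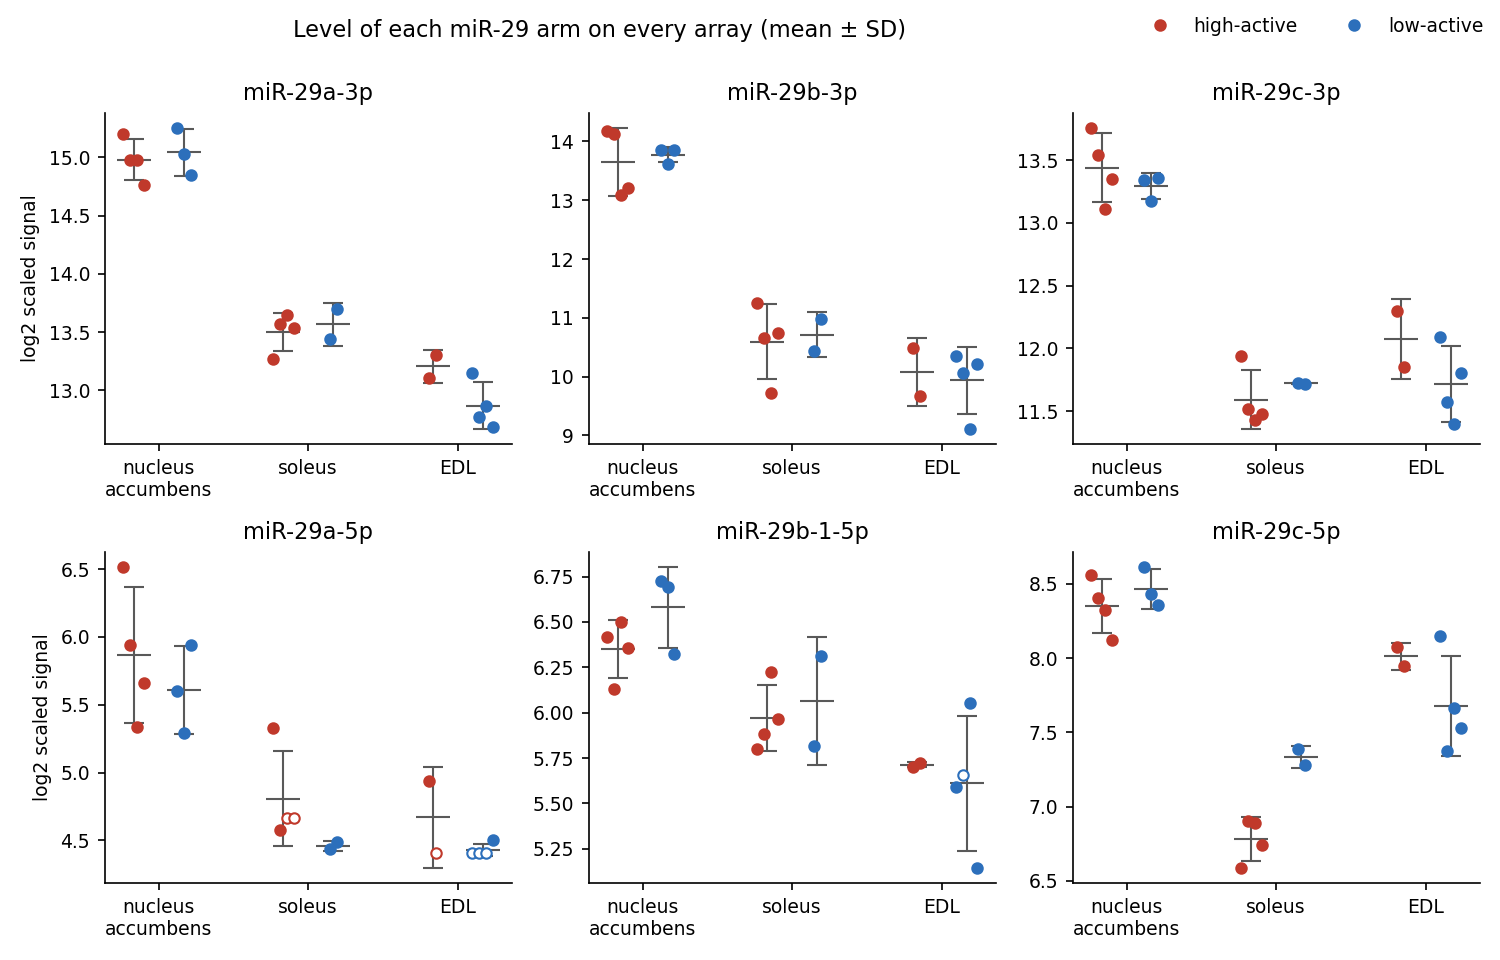
Level of 6 miR-29 arms on each array, as log2 scaled signal (vertical axis, a range of its own in each panel), in the nucleus accumbens, soleus and EDL of high-active (red, left) and low-active (blue, right) mice. Each point is 1 mouse, open where the probe was not above background, and bars give mean ± SD. The red and blue points lie mostly side by side within a tissue, while the nucleus accumbens stands above both muscles for the 3p arms.

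miR-29b-3p had the largest difference in the family between the nucleus accumbens and each muscle, other than with quantile normalization against the soleus (2.90, with 3.10 for miR-29a-3p). On the log2 scale, its signal in the nucleus accumbens was 14.18, 14.12, 13.10 and 13.20 in high-active mice (223, 224, 225 and 227), and 13.86, 13.62 and 13.85 in low-active mice (194, 195 and 197). In the soleus it was 11.26, 10.66, 9.72 and 10.74 in high-active mice (223, 224, 225 and 227), and 10.44 and 10.99 in low-active mice (194 and 195). In the EDL it was 10.49 and 9.67 in high-active mice (225 and 227), and 10.35, 10.07, 9.11 and 10.22 in low-active mice (194, 195, 196 and 197). Every array of the nucleus accumbens lay above every array of muscle, and the 2 muscles overlapped. Averaged over strains, miR-29b-3p was 8.33-fold higher in the nucleus accumbens than in the soleus (log2 difference 3.06, standard error 0.287, adjusted p = 3.60e-08, limma) and 13.03-fold higher than in the EDL (log2 difference 3.70, standard error 0.287, adjusted p = 3.06e-09). Within single mice the excess was 5.51-fold to 11.0-fold over the soleus in 6 of 6 mice and 6.08-fold to 12.4-fold over the EDL in 5 of 5. Within the 3 array slides the log2 difference was 2.87, 2.79 and 2.58 against the soleus, and 3.79, 3.89 and 3.49 against the EDL.

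The mean of miR-29a-3p followed the order nucleus accumbens, soleus, EDL. On the log2 scale, its signal in the nucleus accumbens was 15.20, 14.97, 14.98 and 14.77 in high-active mice (223, 224, 225 and 227), and 15.25, 15.03 and 14.85 in low-active mice (194, 195 and 197). In the soleus it was 13.27, 13.57, 13.64 and 13.53 in high-active mice, and 13.44 and 13.70 in low-active mice. In the EDL it was 13.10 and 13.31 in high-active mice (225 and 227), and 13.15, 12.77, 12.86 and 12.69 in low-active mice (194 to 197). The nucleus accumbens stood apart from both muscles, and soleus and EDL touched only through the soleus of high-active mouse 223 and the EDL of high-active mouse 227. The excess in the nucleus accumbens was 2.78-fold over the soleus (log2 difference 1.48, standard error 0.109, adjusted p = 1.42e-09, limma) and 3.93-fold over the EDL (1.98, standard error 0.109, adjusted p = 2.78e-11). Within the slides it was 1.56, 1.51 and 1.71 against the soleus and 2.48, 2.02 and 2.02 against the EDL.

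miR-29c-3p was also highest in the nucleus accumbens, but its difference between the muscles did not pass the test. On the log2 scale, its signal in the nucleus accumbens was 13.76, 13.54, 13.11 and 13.35 in high-active mice (223, 224, 225 and 227), and 13.34, 13.18 and 13.36 in low-active mice (194, 195 and 197). In the soleus it was 11.94, 11.52, 11.43 and 11.48 in high-active mice, and 11.72 and 11.72 in low-active mice. In the EDL it was 12.30 and 11.85 in high-active mice (225 and 227), and 12.09, 11.57, 11.40 and 11.81 in low-active mice (194 to 197). No array of muscle reached the nucleus accumbens. The excess was 3.27-fold over the soleus (log2 difference 1.71, standard error 0.140, adjusted p = 5.87e-09, limma) and 2.77-fold over the EDL (1.47, standard error 0.140, adjusted p = 4.34e-08). Within the slides it was 1.62, 1.53 and 1.61 against the soleus and 1.77, 1.43 and 1.40 against the EDL.

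The 5p arms had smaller differences between the nucleus accumbens and each muscle. As with the means of miR-29c-3p, whose muscles did not differ past the threshold, those of miR-29c-5p followed the order nucleus accumbens, EDL, soleus. On the log2 scale, its signal in the nucleus accumbens was 8.56, 8.40, 8.33 and 8.12 in high-active mice (223, 224, 225 and 227), and 8.62, 8.43 and 8.36 in low-active mice (194, 195 and 197). In the soleus it was 6.59, 6.90, 6.89 and 6.74 in high-active mice, and 7.39 and 7.28 in low-active mice. In the EDL it was 8.08 and 7.95 in high-active mice (225 and 227), and 8.15, 7.37, 7.67 and 7.53 in low-active mice (194 to 197). The EDL thus reached the lower edge of the nucleus accumbens in low-active mouse 194, while the soleus lay below the nucleus accumbens on every array. miR-29c-5p was 2.55-fold higher in the nucleus accumbens than in the soleus (log2 difference 1.35, standard error 0.120, adjusted p = 1.81e-08, limma) and 1.48-fold higher than in the EDL (0.56, standard error 0.120, adjusted p = 4.07e-04).

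miR-29a-5p, the partner strand of miR-29a-3p, ranged over 5.29 to 6.52 in the nucleus accumbens with a median of 5.66. In the soleus it ranged over 4.43 to 5.33 with a median of 4.62, and in the EDL over 4.41 to 4.93 with a median at the floor. The soleus of high-active mouse 223 was the only muscle array to reach the nucleus accumbens. The fitted log2 differences of 1.10 against the soleus and 1.19 against the EDL (adjusted p = 3.88e-05 and 1.83e-05, limma) have muscle values at or near the floor on one side, so their size depends on the floor. miR-29b-1-5p, the passenger arm of the chromosome 6 copy of miR-29b, ranged over 6.13 to 6.72 in the nucleus accumbens, 5.80 to 6.31 in the soleus and 5.14 to 6.05 in the EDL. Its log2 differences were 0.45 against the soleus (standard error 0.142, adjusted p = 0.00792) and 0.80 against the EDL (standard error 0.142, adjusted p = 6.81e-05). Without the soleus array of low-active mouse 194 the difference against the soleus no longer passed (0.32, adjusted p = 0.0723). With normexp background correction neither of these dim arms passed: miR-29a-5p was at 0.20 against the soleus and 0.13 against the EDL, and miR-29b-1-5p at 0.12 and 0.15 (lowest adjusted p = 0.184). With quantile normalization miR-29a-5p missed the threshold against the soleus (0.49, adjusted p = 0.0530), and with scaling over all probes miR-29b-1-5p missed it against the EDL (0.15, adjusted p = 0.309).

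Thus 6 of 6 tested members rose in the nucleus accumbens relative to each muscle. The background was high: 84.5% of the 407 miRNAs tested passed in each of these comparisons, with 48.9% higher and 35.6% lower in the nucleus accumbens against the soleus and 49.9% higher and 34.6% lower against the EDL. The median log2 difference over all 407 miRNAs was 0.25 against the soleus and 0.30 against the EDL. miR-29b-3p had the 58th highest log2 difference of 407 against the soleus and the 40th against the EDL, and miR-29b-1-5p the 187th and 161st. The median depended on the scaling. With arrays scaled to the 75th percentile over all probes it was -0.25 against the soleus and -0.27 against the EDL, and the counts of miRNAs higher and lower in the nucleus accumbens changed to 168 and 190 against the soleus, where the common probes gave 199 and 145, and to 157 and 198 against the EDL, where they gave 203 and 141. Quantile normalization gave 167 and 186 against the soleus and 159 and 194 against the EDL. Under these 2 scalings miR-29b-1-5p changed direction against the soleus (-0.10 and -0.33) and miR-29c-5p against the EDL (-0.0913 and -0.17), as did miR-29b-1-5p against the EDL with quantile normalization (-0.024), while the 3p arms passed in the same direction under every scaling tried. Relative to the median of all miRNAs, miR-29b-3p stood 2.80 log2 units higher in the nucleus accumbens than in the soleus, miR-29c-3p 1.46, miR-29a-3p 1.22, miR-29c-5p 1.10 and miR-29b-1-5p 0.19. Against the EDL these values were 3.40 for miR-29b-3p, 1.67 for miR-29a-3p, 1.17 for miR-29c-3p, 0.50 for miR-29b-1-5p and 0.26 for miR-29c-5p. miR-29a-5p is left out of these, since most of its EDL arrays were not above background.

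**Figure D2:**
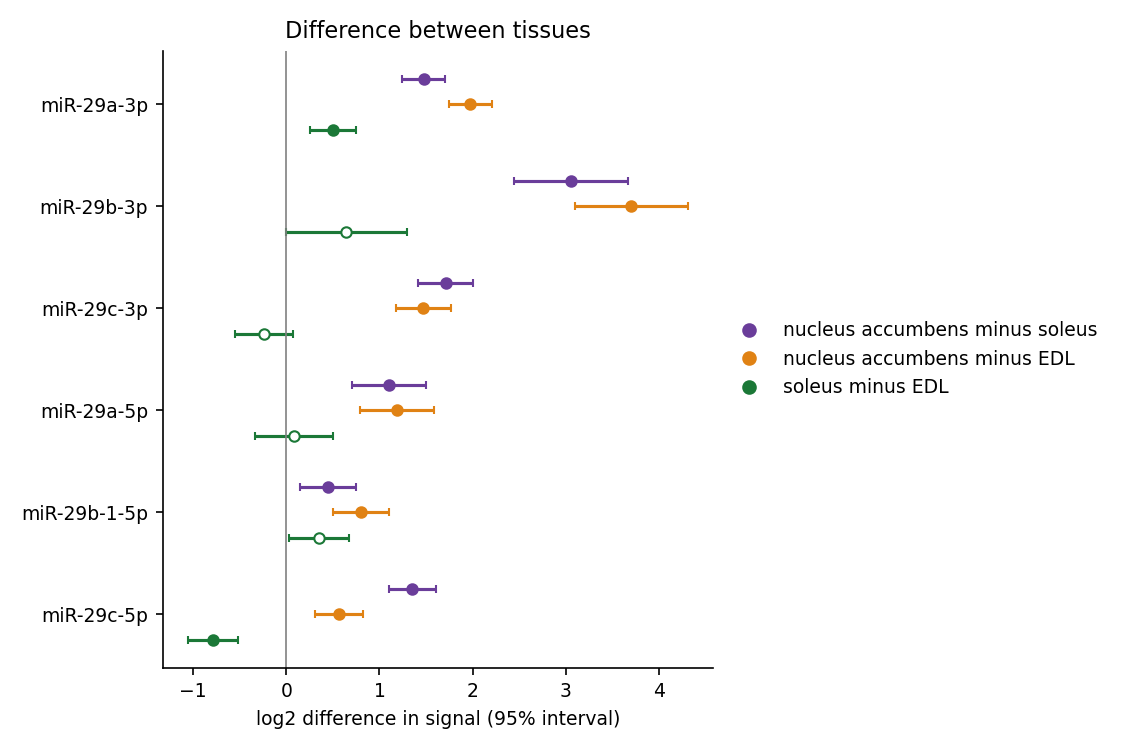
Differences between tissues averaged over both strains, as log2 difference in signal (horizontal axis) with 95% interval, for 6 miR-29 arms. Filled points passed at adjusted p under 0.05 and open points did not. miR-29b-3p stands farthest to the right against both muscles (3.06 and 3.70), and the soleus minus EDL values lie to both sides of 0.

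Between the muscles, 2 of 6 members passed the test, in opposite directions, where 18.2% of 407 miRNAs passed (7.62% higher and 10.6% lower in the soleus). The split of 31 higher and 43 lower miRNAs became 21 and 55 with scaling over all probes and 44 and 2 without scaling. The 74 calls numbered 49 without the soleus array of low-active mouse 195 and 113 without the EDL array of low-active mouse 195. miR-29a-3p was 1.41-fold higher in the soleus than in the EDL (log2 difference 0.50, standard error 0.116, adjusted p = 0.00500, limma). miR-29c-5p was lower in the soleus, 1.73-fold (log2 difference -0.79, standard error 0.128, adjusted p = 2.91e-04). In the 4 mice with both muscles, miR-29a-3p was higher in the soleus in 4 of 4 and miR-29c-5p in 0 of 4. Within the 3 slides the log2 difference was 0.63, 0.43 and 0.16 for miR-29a-3p and -0.58, -0.52 and -1.49 for miR-29c-5p. With mouse as a fixed block, in the paired design that the animal numbers give, miR-29a-3p just missed the threshold (0.45, adjusted p = 0.0576), miR-29b-1-5p passed it (0.41, adjusted p = 0.0284) and miR-29c-5p kept its call. The call of miR-29a-3p was also lost with scaling over all probes (0.39, adjusted p = 0.0585), with quantile normalization (0.28, adjusted p = 0.502) and without scaling (0.74, adjusted p = 0.0937), and that of miR-29c-5p without scaling (-0.55, adjusted p = 0.265). The differences of miR-29b-3p (0.64, adjusted p = 0.175), miR-29b-1-5p (0.35, adjusted p = 0.127), miR-29c-3p (-0.24, adjusted p = 0.337) and miR-29a-5p (0.08, adjusted p = 1) did not pass. Their 95% intervals ran from -0.0025 to 1.29 for miR-29b-3p and from -0.55 to 0.08 for miR-29c-3p. miR-29b-1-5p also passed without the EDL array of low-active mouse 196 (0.43, adjusted p = 0.0390).

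The tissue differences of the 3p arms were unequal in these mice, in a design too small for any test of their ratios to pass after adjustment. A ratio of arms within an array is free of any single scale factor per array. In the nucleus accumbens, relative to the soleus of the same mouse, the ratio of miR-29b-3p to miR-29a-3p was higher by 1.54 ± 0.44 log2 units (SD, n = 6 mice), or 2.90-fold, with changes of 0.99 to 2.06 and an increase in 6 of 6 mice. The ratio of miR-29c-3p to miR-29b-3p was lower in 6 of 6 mice, by a mean log2 change of -1.30 ± 0.44 (SD). The ratio of miR-29c-3p to miR-29a-3p changed by 0.24 ± 0.36 and was higher in 4 of 6 mice. The exact two-sided sign-flip permutation test gave p = 0.03125 for the first and second, the smallest that 6 mice allow, and p = 0.1875 for the third. After adjustment over the 9 ratio tests, p was 0.141 for the first and second, and no smaller value than 0.0938 was possible with these numbers of mice.

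Against the EDL, in 5 mice, the miR-29b-3p to miR-29a-3p ratio was 2.63-fold higher in the nucleus accumbens (log2 change 1.39 ± 0.48, higher in 5 of 5) and the miR-29c-3p to miR-29b-3p ratio was lower, at -2.02 ± 0.17 (0 of 5 higher). Between soleus and EDL, in 4 mice, the miR-29c-3p ratio to miR-29a-3p was lower in the soleus by a log2 change of -0.86 ± 0.37 (0 of 4 higher) and the miR-29b-3p to miR-29a-3p ratio changed by -0.17 ± 0.88 (1 of 4 higher). Exact permutation cannot go below 0.0625 with 5 mice or 0.125 with 4. The changes of miR-29b-3p over miR-29a-3p depended on the normalization. Quantile normalization, which does not scale an array by 1 factor, turned them to -0.18 against the soleus and -0.0884 against the EDL, with the miR-29a-3p difference at 3.10 and 3.38 log2 units there. Both probes of each 3p arm gave similar tissue differences: for miR-29a-3p 1.48 and 1.35 against the soleus, for miR-29b-3p 3.06 and 3.29, and for miR-29c-3p 1.71 and 1.72. The 2 dim 5p arms rest on fewer of their 4 probes: for miR-29a-5p 1 probe was above background on 13 arrays and the others on 0, 0 and 1, and for miR-29b-1-5p the probes were above background on 18, 16, 0 and 0 arrays.

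**Figure D3:**
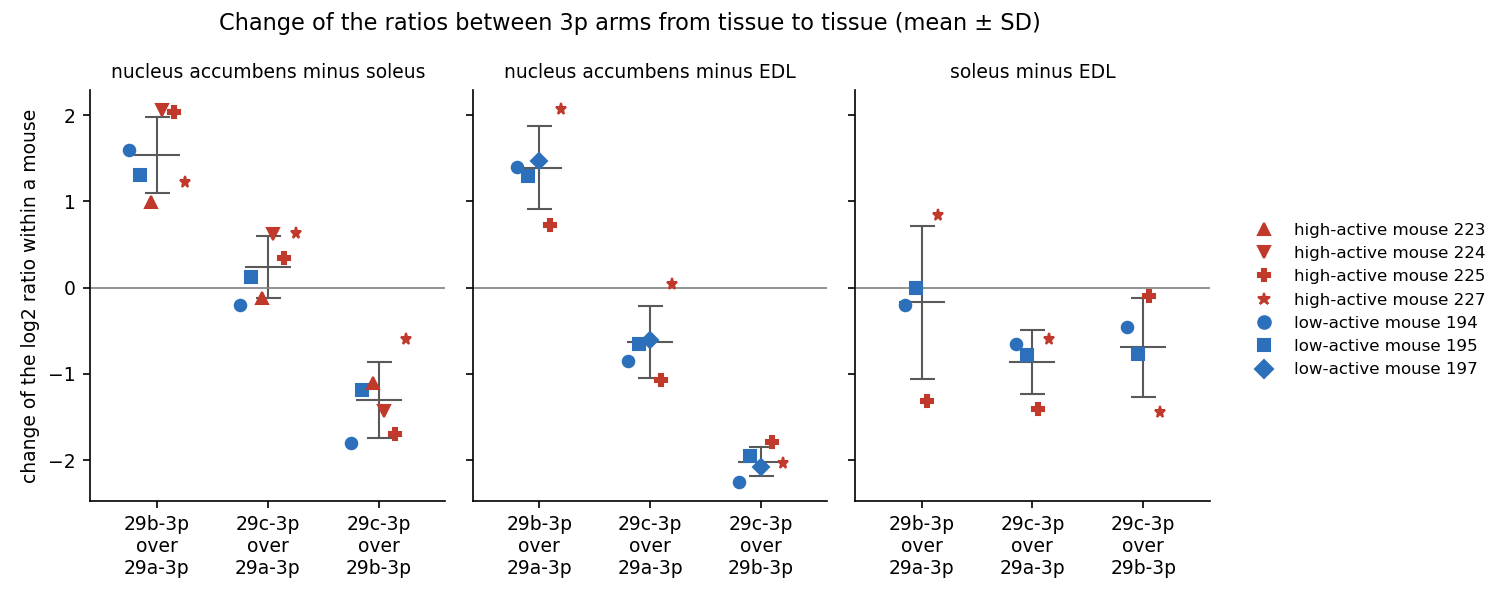
Log2 ratio of 1 miR-29 3p arm to another in the first tissue minus that in the second, within single mice (vertical axis), for the 3 pairs of tissues. Each symbol is 1 mouse, red for high-active and blue for low-active, and bars give mean ± SD. The 29b-3p over 29a-3p ratio lies above 0 in all 6 mice against the soleus and all 5 against the EDL, and the soleus minus EDL values of that ratio spread around 0.

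The strains were compared to learn whether a difference in voluntary activity goes with a difference in miR-29. No member passed the test in any tissue (limma). At an unadjusted p under 0.05 there were 0 members in the nucleus accumbens, 1 in the soleus and 0 in the EDL. Over all miRNAs tested, 10.2% of 391 passed in the nucleus accumbens (1.02% higher and 9.21% lower in high-active mice), 2.05% of 342 in the soleus (0.877% higher and 1.17% lower) and 0.303% of 330 in the EDL. The directions depended on the scaling: the 4 higher and 36 lower miRNAs of the nucleus accumbens became 15 and 13 with scaling over all probes and 3 and 1 without scaling, and the 3 and 4 of the soleus became 9 and 3 with scaling over all probes and 1 and 51 without scaling, where the median over all miRNAs was -0.68. Without 1 low-active array, that of mouse 195 or 194, the 40 calls of the nucleus accumbens numbered 13 or 14, and they numbered 22 without high-active mouse 223 and 25 without low-active mouse 197. In the soleus no miRNA passed when either low-active array was left out, and 1 passed without the array of high-active mouse 225 or 227. In the nucleus accumbens the log2 differences, high-active minus low-active, ran from -0.23 for miR-29b-1-5p to 0.25 for miR-29a-5p (lowest adjusted p = 0.359, limma). The median over all miRNAs there was -0.15. Array brightness separated the strains there, with scale factors of 1.15 to 1.62 in high-active mice and 0.754 to 1.12 in low-active mice. The part of array brightness in the strain differences of the nucleus accumbens was not tested. High-active mice averaged a log2 signal of 14.98 ± 0.18 for miR-29a-3p (SD, n = 4), and low-active mice 15.04 ± 0.20 (SD, n = 3), a difference of -0.06 with a 95% interval of -0.41 to 0.28. For miR-29b-3p, 13.65 ± 0.58 in high-active mice and 13.78 ± 0.13 in low-active mice, the difference was -0.13 with an interval of -0.84 to 0.59. For miR-29c-3p, 13.44 ± 0.28 in high-active mice and 13.29 ± 0.10 in low-active mice, it was 0.15 with an interval of -0.24 to 0.54. Under the common scaling, differences of over 1.5-fold in miR-29a-3p lie outside its interval, while those in miR-29b-3p do not. The estimate for miR-29a-3p was 0.19 with scaling over all probes and 0.36 without scaling. On the 2 slides with arrays of both strains the differences in the nucleus accumbens were -0.0454 and 0.13 for miR-29a-3p, -0.53 and -0.0122 for miR-29b-3p, and -0.0659 and 0.19 for miR-29c-3p.

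In the soleus, high-active mice averaged 13.50 ± 0.16 for miR-29a-3p (SD, n = 4), and low-active mice 13.57 ± 0.18 (SD, n = 2), a difference of -0.06 (95% interval -0.48 to 0.35). The means of miR-29b-3p were 10.60 ± 0.64 in high-active and 10.71 ± 0.38 in low-active mice, a difference of -0.12 (-1.11 to 0.87), and those of miR-29c-3p were 11.59 ± 0.24 in high-active and 11.72 ± 0.004 in low-active mice, a difference of -0.13 (-0.58 to 0.32). Single slides gave -0.0525 and 0.11 for miR-29a-3p, -1.26 and 0.26 for miR-29b-3p, and -0.29 and -0.23 for miR-29c-3p. The closest to a strain difference was miR-29c-5p, at 6.78 ± 0.15 in high-active and 7.33 ± 0.08 in low-active mice. All 4 high-active arrays lay below both low-active ones, and the log2 difference of -0.55 (standard error 0.159) had an unadjusted p of 0.0108 and an adjusted p of 0.155. Such separation of the strains was common in the soleus, at 31.3% of miRNAs, and the only other member to show it was miR-29a-5p, in the opposite direction (0.35, adjusted p = 0.480). That separation of miR-29a-5p lay close to the floor of 4.41, with 4.58 to 5.33 in high-active and 4.43 to 4.49 in low-active mice. Only 2 of the 4 high-active arrays were above background for it, and 2 of 2 low-active ones. Array brightness separated the soleus arrays in the same way: the scale factors were 0.628 to 1.06 in high-active mice and 1.30 to 1.31 in low-active mice, with 263 to 310 miRNAs above background in high-active mice and 336 to 341 in low-active mice. The difference in miR-29c-5p was -1.21 without scaling (adjusted p = 0.0439), -0.25 with scaling over all probes and -0.13 with normexp background correction. On the 2 slides with soleus arrays of both strains, taken singly, it came to -0.39 and -0.57. The part of array brightness in this difference was not tested further.

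In the EDL all 6 log2 differences were above 0, from 0.10 for miR-29b-1-5p to 0.36 for miR-29c-3p, and the lowest adjusted p was 0.839. The median over all miRNAs there was 0.0329, and miR-29a-5p was above background on only 2 of the 6 EDL arrays. High-active mice averaged 13.20 ± 0.14 for miR-29a-3p there (SD, n = 2), and low-active mice 12.87 ± 0.20 (SD, n = 4), a difference of 0.34 with a 95% interval of -0.24 to 0.92. miR-29b-3p was at 10.08 ± 0.58 in high-active mice and 9.94 ± 0.57 in low-active mice, and miR-29c-3p at 12.08 ± 0.32 in high-active mice and 11.72 ± 0.30 in low-active mice. Single slides gave 0.53 and 0.42 for miR-29a-3p, -0.40 and 0.27 for miR-29b-3p, and 0.28 and 0.49 for miR-29c-3p. No member separated the strains in the EDL or the nucleus accumbens, where 15.5% and 21.7% of miRNAs did.

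**Figure D4:**
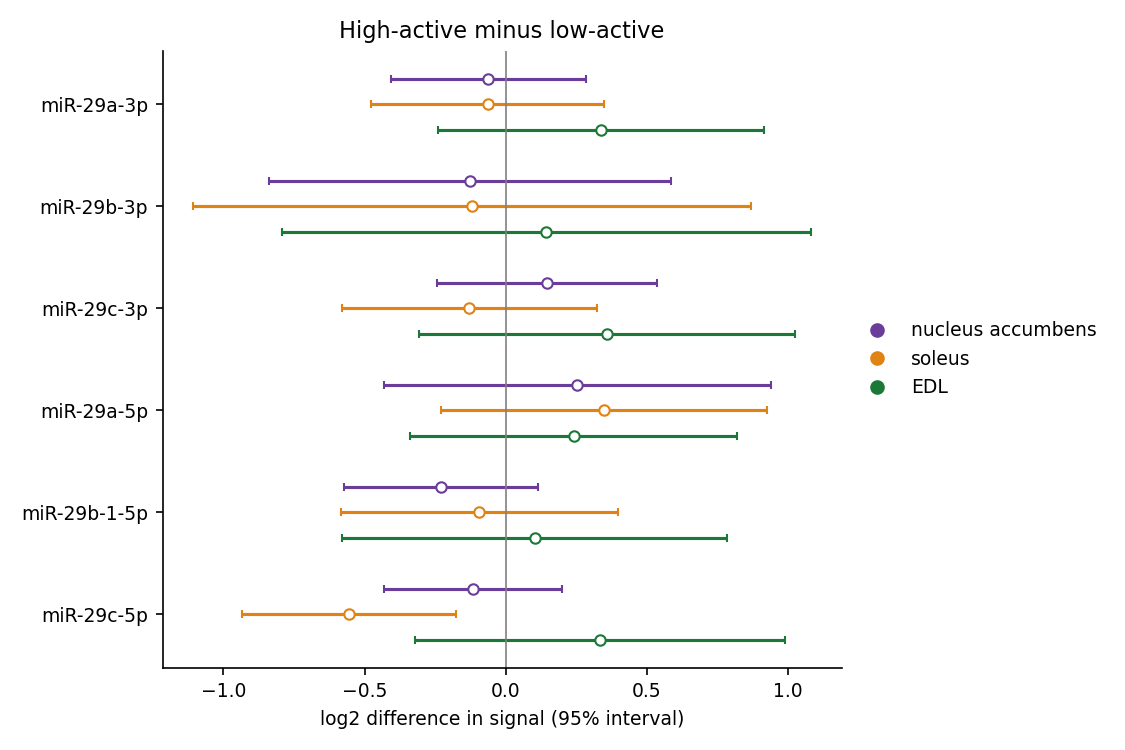
Strain difference of 6 miR-29 arms, as log2 signal of high-active minus low-active mice (horizontal axis) with 95% interval, in each tissue. Open points did not pass at adjusted p under 0.05, and no point is filled. The miR-29c-5p interval in the soleus, around -0.55, is the only one that does not reach 0, and its adjusted p was 0.155.

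Whether the strain difference itself differed between tissues was tested over all 19 arrays. No member passed (0, 0 and 1 at an unadjusted p under 0.05 in the 3 tissue pairs, limma), where 3.44% of 407 miRNAs passed between nucleus accumbens and soleus (0.246% higher and 3.19% lower), 2.21% between nucleus accumbens and EDL, and 0.246% between soleus and EDL. Between nucleus accumbens and soleus the 1 higher and 13 lower miRNAs became 40 and 0 without scaling and 0 and 3 with scaling over all probes, none passed with normexp, and 1 passed without the soleus array of low-active mouse 194. With mouse as a random and as a fixed block 24 and 7 passed there, and 12 and 1 between nucleus accumbens and EDL, where 9 passed without the block. miR-29c-5p again came closest: its strain difference in the soleus minus that in the EDL was -0.89 log2 units (standard error 0.255, unadjusted p = 0.00317, adjusted p = 0.430, limma). It passed when the EDL array of low-active mouse 194 was left out (-1.05, adjusted p = 0.0274). The tissue differences of miR-29b-3p were close in the strains, at 3.06 in high-active and 3.06 in low-active mice against the soleus and 3.57 in high-active and 3.84 in low-active mice against the EDL. Those of miR-29a-3p were 1.48 in high-active and 1.48 in low-active mice against the soleus, and 1.78 in high-active and 2.17 in low-active mice against the EDL.

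Of other miRNAs with a place in fibrosis or myogenesis, the fibrosis list was mostly lower in the nucleus accumbens than in each muscle. The myogenesis list went both ways. Both lists hold miR-133a-3p, miR-26a-5p and miR-214-3p, and both overlap the markers that checked the tissue labels. The myogenesis list holds all 4 skeletal muscle markers, of which miR-133a-3p is also in the fibrosis list. miR-145a-5p of the fibrosis list is one of the 4 vascular markers. Of 12 tested miRNAs of the collagen and fibrosis list, 1 was higher and 9 were lower in the nucleus accumbens than in the soleus, with a median log2 difference of -2.78 (all miRNAs 0.25). Among them miR-214-3p and miR-155-5p were above background on no array of the nucleus accumbens. They met the filter of at least 6 arrays through muscle alone, so it set their direction, and their size depends on the floor. Over all 407 miRNAs, 48.9% were higher and 35.6% lower against the soleus, and 49.9% higher and 34.6% lower against the EDL. miR-199a-3p, a miRNA of mesenchymal cells, was 37.8-fold lower in the nucleus accumbens than in the soleus and 41.5-fold lower than in the EDL. miR-21a-5p, which is raised in fibrotic tissue, was 1.46-fold lower in the nucleus accumbens than in the soleus (adjusted p = 1.37e-04). The one that rose against the soleus was miR-26a-5p (log2 difference 0.30, adjusted p = 0.0110), which turned to -0.25 with scaling over all probes (adjusted p = 0.157) and missed the threshold without scaling, with the software's signal and without the soleus array of low-active mouse 195 (0.27, adjusted p = 0.0506). Against the EDL 1 was higher and 9 were lower as well, and the one that rose was miR-192-5p (0.86, adjusted p = 1.31e-06), whose call was lost with scaling over all probes, quantile normalization and normexp (0.21, 0.0381 and 0.12). Between soleus and EDL 2 were higher and none lower in the soleus: miR-192-5p (0.86, adjusted p = 5.92e-05) and miR-155-5p (0.39, adjusted p = 0.0331). Over all 407 miRNAs, 7.62% were higher and 10.6% lower in the soleus. The call of miR-155-5p held in 19 of 33 alternatives, and in 13 of 19 fits without 1 array: it was lost without the soleus array of mouse 194, 195 or 225 or the EDL array of mouse 197, 225 or 227 (0.34 to 0.42). The call of miR-192-5p was lost with normexp (0.20, adjusted p = 0.568) and with the software's signal (1.00, adjusted p = 0.0714).

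Of 15 tested myogenesis miRNAs, 7 were higher and 8 lower in the nucleus accumbens than in the soleus, and 5 were higher and 8 lower than in the EDL. The filter of at least 6 arrays can be met by a single tissue. In this list miR-31-5p was above background on no muscle array and miR-214-3p on no array of the nucleus accumbens. Their direction was set by that filter and their size depends on the floor. Most miRNAs passed in these comparisons, at 84.5% of all 407 against each muscle. The shares were 48.9% higher and 35.6% lower against the soleus, and 49.9% higher and 34.6% lower against the EDL. miR-221-3p, which restrains muscle differentiation, was 13.4-fold higher in the nucleus accumbens than in the soleus and 13.96-fold higher than in the EDL. The 8 that were lower against the soleus included miR-206-3p and miR-378a-3p. Over the alternatives their log2 differences there were -11.6 to -8.00 and -4.79 to -3.69. In the nucleus accumbens miR-206-3p lay at the floor on every array but that of low-active mouse 197, so its size depends on the floor. miR-24-3p and miR-27b-3p, made from shared clusters, were 1.80-fold and 1.60-fold higher in the soleus than in the EDL (adjusted p = 1.25e-04 and 6.20e-05), beside miR-206-3p. Between the muscles, 7.62% of all 407 miRNAs were higher and 10.6% lower in the soleus. The 3 of this list that were lower in the soleus, named after their values were seen, were miR-181a-5p (-0.51), miR-148a-3p (-0.69) and miR-378a-3p (-0.70). None of these 3 passed without scaling, miR-148a-3p did not pass with normexp (-0.49, adjusted p = 0.0544), and neither miR-148a-3p nor miR-378a-3p passed without the EDL array of high-active mouse 227 (-0.63 and -0.67) or the soleus array of low-active mouse 195 (-0.61 for both). Between the strains, none of the 12 collagen and fibrosis miRNAs passed in any tissue, and of the 13 to 14 myogenesis miRNAs tested per tissue only miR-148a-3p did, in the soleus, where it was 2.14-fold lower in high-active mice (log2 difference -1.10, adjusted p = 0.0315). This call held in 10 of 19 alternatives, always with the same sign. It was lost without the soleus array of mouse 194 (-0.94, adjusted p = 0.620), 195 (-1.26, adjusted p = 0.282), 225 (-1.09, adjusted p = 0.0929) or 227 (-1.06, adjusted p = 0.130), and with normexp, scaling over all probes or slide as a block (-0.63, -0.79 and -1.17).

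Over the 19 arrays the 3p arms varied together, with Pearson's r of 0.945 between miR-29a-3p and miR-29b-3p, 0.897 between miR-29a-3p and miR-29c-3p and 0.952 between miR-29b-3p and miR-29c-3p. For miR-29c-3p and miR-29c-5p, the arms of 1 hairpin, r was 0.832. These are descriptions over arrays that share mice and fall into 3 tissues, so each value holds the contrast of brain and muscle. Among 179 other miRNAs above background on all arrays, those most like the mean of the 3p arms were miR-300-3p (r = 0.974), miR-221-3p (0.973), miR-487b-3p (0.972), miR-335-5p (0.971) and miR-128-3p (0.967), the last of which is a brain marker. Their log2 differences ranged from 2.98 (miR-335-5p) to 4.09 (miR-128-3p) in the nucleus accumbens against the soleus. Those of the 3p arms were 3.06 for miR-29b-3p, 1.71 for miR-29c-3p and 1.48 for miR-29a-3p, the last 2 below all 5. Brain and muscle markers moved with every difference between these tissues, and their part in the miR-29 differences cannot be told apart from the tissue itself. Without the EDL arrays of mice 195 and 197 and the nucleus accumbens array of mouse 197, the one with the most muscle signal, the miR-29b-3p differences were 3.04 against the soleus and 3.79 against the EDL.

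The scanner software also writes 1 signal per miRNA. For miR-29a-3p, miR-29b-3p, miR-29c-3p and miR-29c-5p it equalled the sum of the member's own probe totals within 1% on all 19 arrays. For miR-29a-5p, miR-29b-1-5p and miR-29b-2-5p it held, beside their own probes, the total of miR-29a-3p: their own probes made up 0.0479% to 0.166%, 0.135% to 0.428% and 0.0348% to 0.0517% of it on the arrays where the software called them detected. The software called miR-29b-2-5p detected on 4 arrays and miR-29a-5p on 16, where the probe spots used here were above background on 1 and 13.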

How the data were processed

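The authors removed 5 arrays of poor signal quality and deposited the scanner output of the 19 others. The intensity columns are spot signals as deposited, background-subtracted by Feature Extraction and not normalized between arrays. The deposited table of log2 values, normalized by the authors with a percentile shift in GeneSpring (the percentile is not given in the sources used here), is centred per tissue: every entry has median 0 over the arrays of a tissue, so it gives strain differences only and served as an alternative. No probe sequences were used.

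Processed signals of the spots that were not flagged as outliers were averaged per probe. A probe counted as above background on an array when a share above 0.5 of its spots did. Arrays were scaled together to the 75th percentile of the 328 probes above background on all 19, set to at least 21.2, which is the median array's dimmest signal above background, and taken to log2, and the brightest probe stood for a miRNA. limma 3.58.1 in R 4.3.3 with Benjamini-Hochberg adjustment was fitted over all miRNAs: strains within each tissue (above background on at least 3, 2 and 2 arrays of the nucleus accumbens, soleus and EDL), and tissues and the difference between strain differences over all 19 arrays, as means of the 6 groups (at least 6 arrays). The threshold was an adjusted p under 0.05. Ratios of arms were tested within mice by exact sign-flip permutation. The number of arrays limits the precision. The procedure was tested on simulated data, and figures were drawn with matplotlib 3.10.9.

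Every miR-29 name on the array is reported. Of the other miRNAs, the rule names list members that passed, those that check the tissues, and the 5 above background on all arrays whose values over the arrays correlated best with the mean of the 3p arms. Members and lists were chosen with earlier results of these data known. The animal number in the titles pairs tissues of 1 mouse. Deviations from group means of the 15 pairs correlated at -0.54 to 0.54, above 0.1 in 7. Mouse as a block, slide as a block, other scalings, background corrections, summaries and filters, and leaving out each array were tried as alternatives. miR-486a-5p of the myogenesis list was not analysed here.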

Additional observations from a re-analysis of the deposited data

Results flagged for a closer look

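Of 18 groups of 4 arrays with any spread among the members, 3 held 1 array far from the rest, by a limit that chance passes in about 1 in 20 groups of normally spread values. These are not 3 separate events, since 2 of them are the same array. In the soleus of high-active mice, mouse 223 had the highest miR-29c-3p (11.94, next highest 11.52) and the highest miR-29a-5p (5.33, next highest 4.66). Its array had the lowest scale factor of the soleus (0.628) and the fewest miRNAs above background there (263). In the EDL of low-active mice, mouse 197 had a miR-29a-5p of 4.50 with the other 3 arrays tied at the floor of 4.41, so that any value above the floor would stand apart.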

How the results depend on the processing

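The 3p arms were higher in the nucleus accumbens than in each muscle, past the threshold, under each of the 34 alternatives tested. Against the soleus the log2 difference ranged over 2.51 to 3.20 for miR-29b-3p, 0.93 to 3.10 for miR-29a-3p and 1.16 to 1.82 for miR-29c-3p, and against the EDL over 3.05 to 4.06, 1.32 to 3.38 and 0.82 to 1.82. Of the 6 members higher in the nucleus accumbens than in each muscle, 4 kept that call with normexp against either muscle and with quantile normalization against the soleus, where miR-29b-1-5p was lower. Scaling over all probes kept 5 against the soleus and 4 against the EDL, and quantile normalization 4 against the EDL. The number of members past the threshold between soleus and EDL, 2 as reported, was 1 with scaling over all probes, 0 without scaling and 1 with quantile normalization. In the soleus, 2 members differed between strains without scaling (miR-29c-3p and miR-29c-5p) and 0 otherwise. Between soleus and EDL, 0 to 1 member differed in its strain difference when single arrays were left out. With mouse as a random block (correlation 0.107) and as a fixed block, the paired fits, the counts of members past the threshold stayed at 6 and 6 against soleus and EDL and at 2 between the muscles, and no call changed other than those of miR-29a-3p and miR-29b-1-5p given above.

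Against the soleus, miR-29b-1-5p turned to -0.10 with scaling over all probes and to -0.33 with quantile normalization (adjusted p = 0.0422). Against the EDL, it turned to -0.024 with quantile normalization, and miR-29c-5p to -0.0913 and -0.17 under these 2 settings. The soleus minus EDL difference of miR-29a-5p was -0.0065 without scaling, -0.0711 with normexp and -0.0474 to 0.22 when single arrays were left out. The ratio changes turned with quantile normalization for miR-29b-3p over miR-29a-3p (-0.18 and -0.0884 for the nucleus accumbens against soleus and EDL, 0.0541 for soleus against EDL) and for miR-29c-3p over miR-29a-3p in the nucleus accumbens against the soleus (-1.37). Leaving out single mice gave -0.51 to 0.21 for miR-29b-3p over miR-29a-3p between soleus and EDL.

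Strain differences, none past the threshold as reported, changed sign as follows. In the nucleus accumbens, scaling over all probes gave 0.19 for miR-29a-3p, 0.13 for miR-29b-3p, 0.0258 for miR-29b-1-5p and 0.14 for miR-29c-5p, no scaling gave 0.36, 0.29, 0.19 and 0.30 for the same arms, slide as a block gave 0.0621 for miR-29a-3p, normexp -0.10 for miR-29a-5p and the software's signal -0.0192 for miR-29c-3p. Leaving out single arrays there gave -0.16 to 0.0442 for miR-29a-3p and -0.30 to 0.0597 for miR-29b-3p. In the soleus, scaling over all probes gave 0.25 for miR-29a-3p, 0.19 for miR-29b-3p, 0.18 for miR-29c-3p and 0.22 for miR-29b-1-5p, slide as a block gave 0.0423 for miR-29a-3p and 0.0268 for miR-29b-1-5p, the sum of probe totals 0.0131 and 0.0889 for these, and no scaling -0.26 for miR-29a-5p. miR-29b-1-5p was also at 0.0157 with the mean of the probes, 0.25 with normexp and 0.0619 with quantile normalization there. Leaving out single soleus arrays gave -0.19 to 0.0659 for miR-29a-3p, -0.39 to 0.17 for miR-29b-3p and -0.34 to 0.15 for miR-29b-1-5p. In the EDL, normexp gave -0.0085 for miR-29a-5p and -0.0236 for miR-29b-1-5p, slide as a block gave -0.064 for miR-29b-3p, and leaving out single arrays gave -0.0529 to 0.25 for miR-29b-1-5p and -0.27 to 0.55 for miR-29b-3p. The cause of these changes was not tested. Over all miRNAs, the number past the threshold in the strain comparison ranged over 4 to 48 in the nucleus accumbens (40 as reported), 1 to 52 in the soleus (7) and 0 to 9 in the EDL (1) with other settings, and over 13 to 37, 0 to 9 and 0 to 4 when single arrays were left out. Between soleus and EDL it ranged over 37 to 729 (74 as reported), the highest without a filter, and over 49 to 113 when single arrays were left out. Without a filter 1136 miRNAs were tested rather than 407, including those at the floor on every array. There 667 of the 729 were higher in the soleus, while the median log2 difference over all miRNAs was 0. Normexp was run on spot medians, an alternative chosen after seeing the files, as were the sum of probe totals and the fit without 3 arrays. The planned version on spot means was not run. The software's signal gave no value for the 3 arms that carry the total of miR-29a-3p.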
